A study of Mus musculus with 10 samples.

Results

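ER-Hoxa9-Lys-GFP cells are cultured mouse cells of the C57BL/6 strain that carry Hoxa9 joined to the estrogen receptor, so that the fusion depends on its ligand estradiol (E2). All groups also share the Lys-GFP of the line's name, a green fluorescent reporter known from mice in which it sits in the lysozyme gene Lyz2. Transcripts were measured in cells kept without E2 for 120 h and in untreated cells, which kept E2. The comparison asks what the cells' RNA becomes when the fusion is left without its ligand and nothing brings the ligand back. It uses 4 of the 10 libraries of the series, chosen by their titles and not by any measured value: 2 of the 120 h cells and 2 of the untreated cells. All groups are the same line in the same medium with serum and stem cell factor conditioned medium, and E2 was taken away by washes in buffer followed by medium without it. Beside them stand 2 libraries of the most similar group, cells left without E2 for 72 h and then given it back for 48 h, which are named the 72 h group here. The other 4 libraries (24 h without E2 and 96 h with it again, and 40 h without E2 and 80 h with it again) served only in the shared estimate of the spread. The labels number the libraries of a group 1 and 2 but do not say whether these came from separate cultures. The p-values thus reflect how much libraries spread within groups, pooled over all 5 groups, a spread that may be technical.

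Hoxa9 is a homeobox factor that holds hematopoietic progenitors in an immature, dividing state, and progenitors held by it go on along the myeloid lineage once its activity is lost. Neutrophil granules are made in order: the contents of primary granules in promyelocytes, those of secondary granules in myelocytes, and gelatinase, chemoattractant receptors and motility proteins last. In the same course the cells stop dividing, cut down ribosome production and change the shape of the nucleus. Values are RPKM (reads per kilobase of transcript, scaled to the library's size), 1 annotated transcript standing for each gene. Of 26227 genes listed, 13004 reached at least 1 RPKM in at least 2 of the 10 libraries and were tested with limma. Fold changes are 120 h minus untreated on the log2(RPKM + 1) scale, which understates the change of low genes, and a call is an adjusted p under 0.05 (Benjamini-Hochberg, over all 13004 genes).

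The 250 bases before the start of a gene are shown for 4 genes that rose and 2 that fell at 120 h, to set side by side their CpG dinucleotides, which are in capitals. Chil3, S100a9, Ltf and Ngp were among the 10 largest gains in mean RPKM, Eef1a1 had the greatest loss, and Nop56 is a ribosome biogenesis factor. Sequences are RefSeq's, 5′ to 3′ on the gene's strand, in build GRCm38.p6.
Chil3: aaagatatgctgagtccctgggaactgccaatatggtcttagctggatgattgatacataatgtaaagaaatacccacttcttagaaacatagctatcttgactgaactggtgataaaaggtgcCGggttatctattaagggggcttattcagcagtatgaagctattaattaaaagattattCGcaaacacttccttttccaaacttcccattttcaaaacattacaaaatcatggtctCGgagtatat
S100a9: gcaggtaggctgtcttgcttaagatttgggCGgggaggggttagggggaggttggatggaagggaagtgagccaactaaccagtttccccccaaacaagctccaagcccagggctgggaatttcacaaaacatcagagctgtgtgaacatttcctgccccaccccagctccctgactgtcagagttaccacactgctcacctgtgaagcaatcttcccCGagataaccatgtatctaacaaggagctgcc
Ltf: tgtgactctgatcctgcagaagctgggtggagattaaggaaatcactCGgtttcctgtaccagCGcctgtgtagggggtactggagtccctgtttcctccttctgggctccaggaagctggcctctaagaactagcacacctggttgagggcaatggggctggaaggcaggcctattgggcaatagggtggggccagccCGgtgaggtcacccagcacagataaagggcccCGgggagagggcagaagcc
Ngp: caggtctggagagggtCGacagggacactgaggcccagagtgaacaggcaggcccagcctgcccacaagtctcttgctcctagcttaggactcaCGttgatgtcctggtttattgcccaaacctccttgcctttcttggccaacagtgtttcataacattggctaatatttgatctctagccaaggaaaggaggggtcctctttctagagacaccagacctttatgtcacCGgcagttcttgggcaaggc
Eef1a1: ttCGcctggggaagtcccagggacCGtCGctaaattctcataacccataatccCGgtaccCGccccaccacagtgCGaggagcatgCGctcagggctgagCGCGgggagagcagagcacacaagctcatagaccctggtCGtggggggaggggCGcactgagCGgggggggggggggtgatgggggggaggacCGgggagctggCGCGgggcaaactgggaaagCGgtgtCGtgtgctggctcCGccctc
Nop56: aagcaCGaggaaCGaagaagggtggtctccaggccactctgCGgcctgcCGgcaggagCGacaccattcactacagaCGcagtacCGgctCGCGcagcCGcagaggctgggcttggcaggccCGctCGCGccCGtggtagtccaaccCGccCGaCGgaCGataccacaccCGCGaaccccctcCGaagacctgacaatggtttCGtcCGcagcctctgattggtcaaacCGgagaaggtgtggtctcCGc
The windows lie on chr3:106167565-106167814 (- strand) for Chil3, chr3:90695722-90695971 (- strand) for S100a9, chr9:111019042-111019291 (+ strand) for Ltf, chr9:110419558-110419807 (+ strand) for Ngp, chr9:78481725-78481974 (- strand) for Eef1a1 and chr2:130274162-130274411 (+ strand) for Nop56. The promoters of Chil3, S100a9, Ltf and Ngp held 3, 2, 4 and 3 CpG, while those of Eef1a1 and Nop56 held 18 and 25.

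Larger sets were counted in the same way. RefSeq gave a promoter within 1000 bases of the transcript's start for 8498 of the 13004 genes, and 71.0% of these had a CpG ratio (observed over expected from the C and G content) of at least 0.6. Among the 205 genes switched on, meaning under 1 RPKM in both untreated libraries and at least 10 RPKM in both 120 h libraries, 145 had a promoter and 11.7% of those reached that ratio, with a median of 0.20 against 0.75 over all. The 343 promoters of tested genes that were equally low in untreated cells but were not switched on reached it in 38.2%. Genes switched off had a share of 32.6% (46 promoters), and genes called lower by at least 2-fold one of 72.9%. Genes called higher by at least 2-fold had 46.4% (1266 promoters). None of the 20 matched secondary granule genes reached it, while 87.0% of 23 ribosome biogenesis factors did.

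Letters that fit binding motifs were counted on both strands of the same windows. TTGCNNAA, a form of the C/EBP motif, was in 16.6% of promoters of genes switched on and in 7.48% of all promoters, and the genes equally low in untreated cells but not switched on had 11.4%. GAGGAAGT, a form of the PU.1 motif, was in 12.4% and 2.89%, and in 6.12% of those equally low genes. The E-box CACGTG was in 2.07% of genes switched on and 8.73% of all, and GGCGGGAA, a form of the E2F motif, was in 0% and 3.85%; the equally low genes had 8.45% and 3.50%. Of the promoters shown, those of Ltf and S100a9 held TTGCNNAA once each, that of Ngp held it at 2 places, and those of Chil3, Eef1a1 and Nop56 held none of the 4 motifs. These are descriptions of letters in a window, and CpG-rich and CpG-poor windows differ in base composition.

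**Figure D1:**
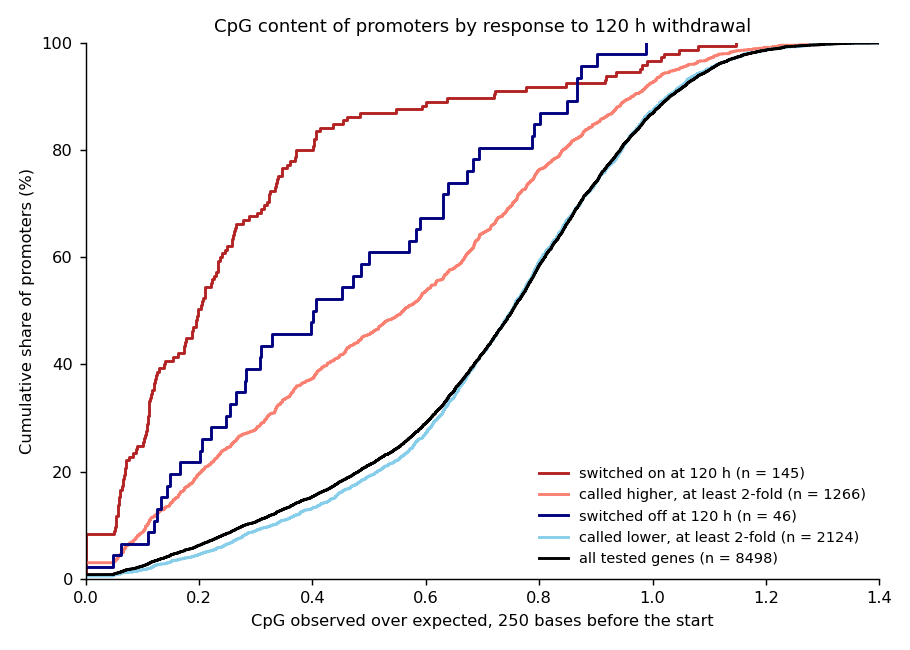
Cumulative share of promoters (%) by CpG observed over expected in the 250 bases before the start, for genes switched on, called higher by at least 2-fold, switched off, called lower by at least 2-fold, and all tested genes with a promoter. The curve of genes switched on rises first, with a median of 0.20, and the curve of genes called lower lies close to that of all genes, whose median is 0.75.

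In size, 10440 of 13004 genes were called (80.3%), 3582 higher (27.5%) and 6858 lower (52.7%), and 2564 were not. At least 2-fold changes were called for 1867 genes upward (14.4%) and 3288 downward (25.3%), and the libraries of the 2 groups did not overlap for 11580 genes (89%). The largest changes ran upward: 407 genes rose and 141 fell by at least 3 on the log2 scale, and 127 rose and 20 fell by at least 5. The median change over all genes was -0.36, which median-of-ratios scaling moved to about 0 (-0.0015), and with that scaling 5125 genes were called higher (39.4%) and 5015 lower (38.6%). List counts given below under that scaling are to be read beside these shares. Among the genes named below as not called, median-of-ratios scaling called all higher except Cfl1, H2-D1, Itga6, Mxd3 and Prtn3, which it did not call either. Among the uncalled genes, 1597 had a 95% interval of the change that lay within 0.5 on either side of 0. Long intergenic RNAs gave 53 higher and 92 lower of 186, and protein-coding genes 3125 and 5647 of 10756.

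The libraries had denominators of 173620000 and 202950000 reads at 120 h, against 204390000 and 176330000 in untreated cells. The 2 libraries of 120 h cells lay further apart than those of untreated cells, with a Pearson correlation over genes of 0.979 against 0.997, and 213 genes differing at least 2-fold between them against 16. The SD over genes of their log2 difference was 0.400, against 0.141 in untreated cells. The fit pools 1 spread per gene over all 5 groups, so it can understate that of the 120 h group. A fit of the 4 libraries compared, without the others, called 3141 genes higher and 6286 lower. Array weights, which count the 120 h libraries less, gave 3138 and 6083. Library 2 of the 120 h cells was above library 1 for 1472 of the 1867 genes called higher at least 2-fold, and below it for 2809 of the 3288 called lower, while over all genes it was above for 43.8% and below for 56.0%. Without 120 h library 1 the calls numbered 3962 higher and 6944 lower, and without library 2 they numbered 3480 and 6903. The genes with the greatest difference between these 2 libraries were higher in library 2, and among them were the nuclear RNAs Malat1 (5.91 and 35.9 RPKM) and Neat1 (2.42 and 11.7), the microRNA host Mir142hg (3.23 and 17.9) and the antiviral gene Oas2 (8.01 and 38.3). In untreated cells Malat1 had 2.94 and 3.33 RPKM and Neat1 1.24 and 1.44 RPKM. Both were also higher in library 2 than in library 1 of the 72 h group (3.71 and 11.2 RPKM for Malat1, 1.23 and 4.22 RPKM for Neat1). The part of nuclear RNA content in the results below was not tested.

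The most abundant genes were in large part others at 120 h than in untreated cells. The 10 most abundant coding genes took 11.4 and 10.9% of all coding RPKM at 120 h, against 7.26 and 7.25% in untreated cells, where most of the 10 were ribosomal proteins. For the 100 most abundant the shares were 33.2 and 31.2% at 120 h, against 34.1 and 34.7%, so that the greater share at 120 h held for the top 10 and not for the top 100. Chil3, a chitinase-like protein stored in secondary granules, had 8692 and 5850.5 RPKM at 120 h, against 1.33 and 0.531 RPKM in untreated cells. Lcn2, which encodes the iron-siderophore trap lipocalin 2, had 3405 and 3248 RPKM against 32.0 and 37.5 RPKM. Tmsb4x, the actin-sequestering thymosin beta 4, had 2873 and 2519 RPKM against 283 and 313 RPKM. These 3 genes rose by 11.88, 6.54 and 3.17 on the log2 scale, with no overlap of the libraries (limma, adjusted p = 1.16e-08, 5.45e-09 and 2.95e-07). Eef1a1, the elongation factor that brings tRNA to the ribosome, had the greatest loss, with 4409 and 2841 RPKM at 120 h and 8769 and 8692 RPKM in untreated cells (-1.30, adjusted p = 0.00589), and it still was among the 10 most abundant genes of both 120 h libraries. Its call was lost in a fit of these 4 libraries alone (adjusted p = 0.0598) and without the filter on low values (adjusted p = 0.193). The number of coding genes at 1000 RPKM or more was 40 and 30 at 120 h, against 75 and 79 in untreated cells. RPKM are shares of a library, so fewer cells of a type and less RNA per cell cannot be told apart.

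**Figure D2:**
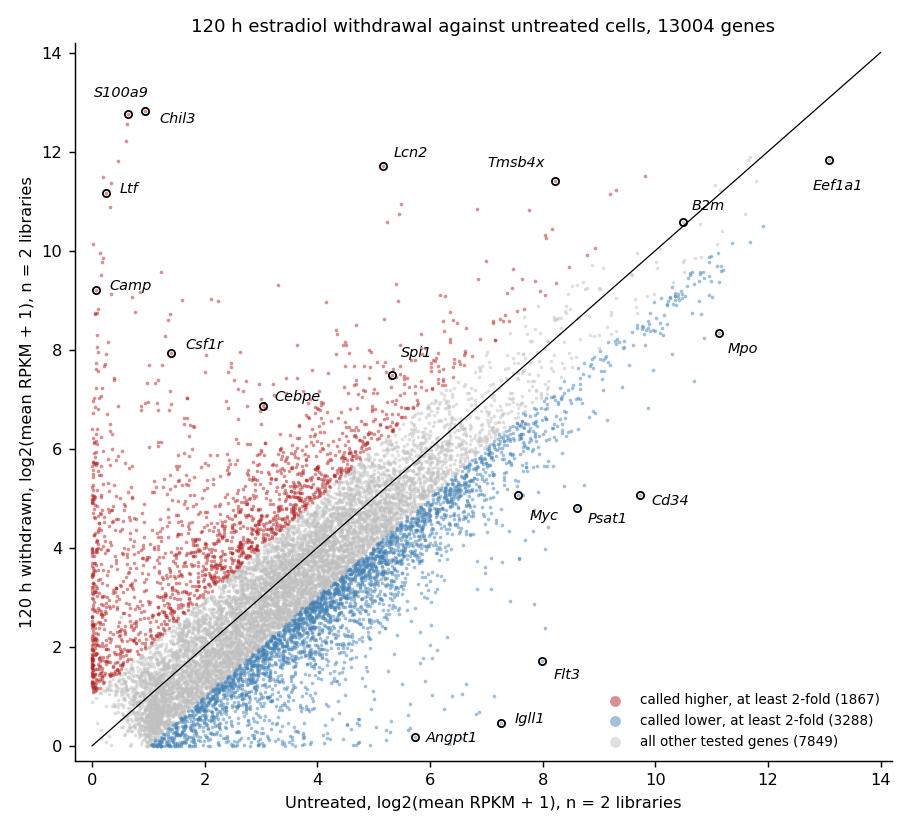
Mean level of each of the 13004 tested genes, log2(mean RPKM + 1), in 120 h cells (vertical axis, n = 2 libraries) against untreated cells (horizontal axis, n = 2 libraries), with the line of equal levels. The 1867 genes called higher at least 2-fold reach far up the left edge, where untreated cells have under 1 RPKM, while most of the 3288 called lower lie in a band close below the line.

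Genes switched on numbered 205, of which 186 code for proteins, and genes switched off numbered 70, of which 63 do. The 10 most abundant of those switched on were S100a9, S100a8, Stfa1, Ngp, Ltf, Stfa2l1, Stfa3, Stfa2, Gm5483 and BC100530, which are calprotectin subunits, granule proteins, and stefins or genes of the stefin cluster, inhibitors of cysteine proteases. As near copies of each other the stefins are uncertain as single genes. In the 72 h group 28 of the 205 were at 10 RPKM or more in both libraries, 26 were under 1 RPKM in both and 151 were between. Igll1, a surrogate light chain of the pre-B cell receptor, was the highest of those switched off, with 0.490 and 0.272 RPKM at 120 h and 163 and 141 RPKM in untreated cells. The matrix and vessel proteins Serpinf1 (0.679 and 0.541 against 123 and 109 RPKM), Aebp1 (0.0330 and 0.0260 against 83.8 and 76.6 RPKM) and Egfl7 (0.828 and 0.255 against 48.0 and 47.6 RPKM) fell with it, as did Angpt1 (0.141 and 0.130 against 50.1 and 54.3 RPKM), a ligand of the Tie2 receptor. Cnn3, an actin-binding calponin, fell to 0.851 and 0.293 RPKM, against 113 and 111 RPKM, and Cox6a2, the muscle form of a cytochrome oxidase subunit, to 0.858 and 0.509 RPKM, against 67.7 and 82.5 RPKM. For each of these 7 genes both 120 h libraries were below both untreated ones, and the fall was 5 or more on the log2 scale (limma, adjusted p at most 7.14e-08).

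The C/EBP family, leucine zipper factors that act at successive steps of granulocyte formation, had 3 of its 7 genes higher and 4 lower, beside 27.5% and 52.7% of all genes. Under median-of-ratios scaling 3 were higher and 3 lower, beside 39.4% and 38.6% of all genes. Cebpe, which is needed for secondary granule genes, had 132 and 98.0 RPKM at 120 h and 6.80 and 7.60 RPKM in untreated cells. Cebpd had 32.0 and 27.2 RPKM against 2.20 and 2.10 RPKM, and Cebpb, the emergency and monocyte form, 19.8 and 21.9 RPKM against 3.86 and 4.08 RPKM. These 3 rose, by 3.81 (SE 0.19), 3.28 (SE 0.13) and 2.14 (SE 0.085) on the log2 scale, with adjusted p = 6.09e-07, 1.63e-07 and 1.75e-07 in limma. Cebpa, which starts the granulocyte program in progenitors, had 17.9 and 13.2 RPKM at 120 h and 55.0 and 56.2 RPKM in untreated cells and fell by 1.79 on the log2 scale (SE 0.13, adjusted p = 4.01e-06). Cebpg (-1.20) and the stress-induced Ddit3 (-1.35) also fell at least 2-fold, and Cebpz fell by 0.44, a call that median-of-ratios scaling ended. On the RPKM scale Cebpe was above Cebpa at 120 h and below it in untreated cells.

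Of 33 transcription factors listed for granulocyte and monocyte fate, 29 were tested, 4 of which passed the filter only through the 120 h libraries. The list also holds factors of wider use, such as Fos, Junb and Stat3. Of the 29 tested, 24 rose and 3 fell, against 27.5% and 52.7% of all genes. Spi1 (PU.1), which drives the myeloid lineage in both directions, had 185 and 175 RPKM at 120 h and 39.8 and 38.9 RPKM in untreated cells (2.16, adjusted p = 1.47e-07). Factors of monocytes and macrophages rose with it: Irf4 had 6.52 and 8.16 RPKM against 0.0190 and 0.0100 RPKM, Klf4 7.90 and 11.4 RPKM against 0.546 and 0.511 RPKM, and Maf 5.57 and 8.57 RPKM against 0.110 and 0.161 RPKM. Irf8, which favors monocytes over granulocytes, changed less, with 23.2 and 21.7 RPKM against 13.6 and 12.6 RPKM (0.74, adjusted p = 2.79e-04). Klf2, a factor of resting cells, rose by 3.79, and the retinoic acid receptor Rara by 2.14. Gfi1, a repressor that favors granulocytes over monocytes, had 25.1 and 16.7 RPKM at 120 h and 52.2 and 55.4 RPKM in untreated cells and fell by 1.35 (adjusted p = 1.69e-04). Gfi1 was at 75.5 and 94.8 RPKM in the 72 h group, above both other groups, and 120 h minus 72 h was -1.99 (adjusted p = 2.20e-05). Runx3 fell by 1.47 and Runx1 rose by 1.07, and both are lineage factors of the same family. Nfe2 and Batf were not called (-0.10 and 0.11).

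Stem and progenitor factors went the other way, with 17 of the 24 tested lower and 4 higher, or 15 and 6 under median-of-ratios scaling. Over all genes 52.7% were lower and 27.5% higher, or 38.6% and 39.4% under that scaling. Of the 24 genes 1 passed the filter only through the 120 h libraries. Myb, on which progenitor division depends, had 39.5 and 28.8 RPKM at 120 h and 235 and 244 RPKM in untreated cells, and Hlf, a stem cell factor, had 1.74 and 1.25 RPKM against 56.1 and 62.6 RPKM. Sox4 had 0.279 and 0.148 RPKM against 37.5 and 39.2 RPKM. Ebf1, the B lineage factor, is not one of the 24 and is counted with the lymphoid markers below. It had 0.0100 and 0.00700 RPKM against 23.7 and 24.0 RPKM. These 4 genes fell, by 2.79, 4.60, 5.02 and 4.62 on the log2 scale, with no overlap of the libraries (adjusted p at most 1.36e-06). Myb was at 219 and 267 RPKM in the 72 h group, and 120 h minus 72 h was -2.81 (adjusted p = 2.27e-06). Lmo2 and Lyl1, hematopoietic partners of Tal1, were not called (0.13 and -0.025). Of 19 Hoxa cluster and TALE partner genes 7 were tested, 1 of which passed the filter only through the 120 h libraries. The cofactors Meis1 (-2.65), Pbx4 (-2.65) and Pbx3 (-0.83) fell, while Pbx2 (0.38) rose, and without untreated library 1 the call of Pbx2 was lost (0.34, adjusted p = 0.0574). Hoxa9 had 94.5 and 97.9 RPKM at 120 h and 50.2 and 60.0 RPKM in untreated cells and Esr1 10.9 and 11.9 RPKM against 5.87 and 7.19 RPKM, and reads of the fusion and of the cells' own genes are not separated in these values.

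Of 11 genes of the Myc, Max and Mxd network 4 rose and 3 fell, beside 27.5% and 52.7% of all genes, and 4 were not called. Under median-of-ratios scaling 6 were higher and 2 lower, beside 39.4% and 38.6% of all genes. Myc, which drives growth and ribosome production, had 42.4 and 22.6 RPKM at 120 h and 187 and 189 RPKM in untreated cells (-2.56, adjusted p = 1.64e-05), and Mycn fell to 0.00400 and 0 RPKM, against 2.15 and 2.49 RPKM. Of the repressors of the same sites Mxd1 and Mxi1 rose: Mxd1 had 28.6 and 40.0 RPKM against 8.65 and 8.68 RPKM (1.85, adjusted p = 7.94e-06) and Mxi1 33.6 and 33.9 RPKM against 16.2 and 15.1 RPKM (1.06, adjusted p = 7.38e-06). Mxd3 (-0.090) and Mnt (0.10) were not called, but without 120 h library 1 Mxd3 was called lower (-0.30, adjusted p = 0.0360). Mxd4 fell by 0.26, but under median-of-ratios scaling it was not called and its sign turned, and without untreated library 1 or 2 it was not called either (-0.27 and -0.26, adjusted p = 0.0657 and 0.0768). Max itself rose by 0.48 and Mlx by 1.33.

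**Figure D3:**
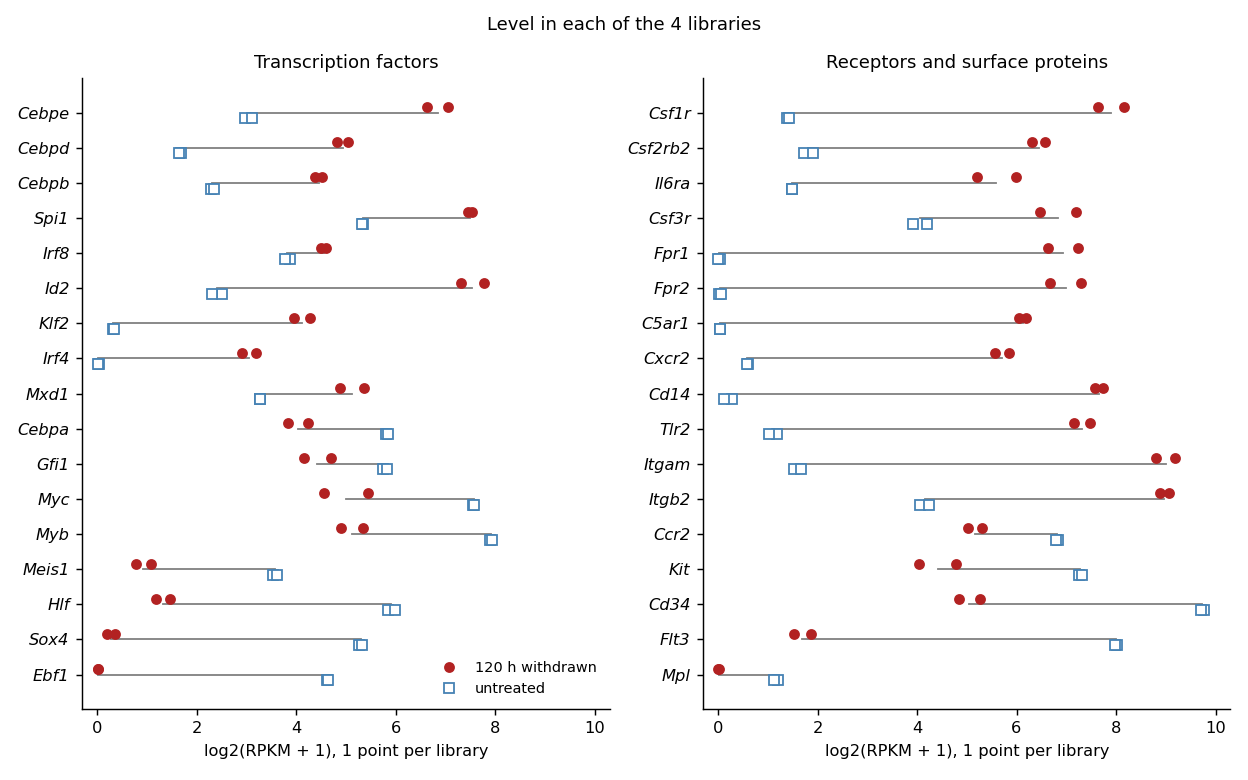
Level in each library, log2(RPKM + 1), of 17 transcription factors and 17 receptors and surface proteins, with filled circles for the 2 libraries of 120 h cells and open squares for the 2 of untreated cells, and a line between the group means. No gene shown has overlapping groups, and the 2 circles lie further apart than the 2 squares for Myc, Gfi1 and Kit.

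Among 26 tested growth factor and cytokine receptors, 3 of which passed the filter only through the 120 h libraries, 17 rose and 5 fell, beside 27.5% and 52.7% of all genes. Csf1r, the receptor of the macrophage growth factor, had 199 and 285 RPKM at 120 h and 1.61 and 1.70 RPKM in untreated cells (6.49). Csf3r, the G-CSF receptor of neutrophils, which is named here after its values were seen, had 88.0 and 146 RPKM against 14.1 and 17.5 RPKM (2.78), and the shared beta chain Csf2rb2 78.8 and 93.9 RPKM against 2.30 and 2.75 RPKM (4.63). The receptor Flt3 of early progenitors was nearly lost, with 1.88 and 2.64 RPKM at 120 h against 257 and 250.1 RPKM, and Kit, the receptor of the stem cell factor in the medium, had 26.7 and 15.4 RPKM against 152 and 158 RPKM. All 5 passed the test with no overlap of the libraries (limma, adjusted p at most 1.26e-05). The interferon receptor chain Ifnar2 was not called (0.027, adjusted p = 0.757).

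Chemoattractant receptors, which steer neutrophils to sites of infection, had 15 of 16 tested higher (1 passed the filter only through the 120 h libraries), beside 27.5% of all genes. Their median change was 3.81, against -0.36 over all genes. Fpr1 and Fpr2, the receptors of bacterial formyl peptides, had 97.7 and 149.9 and 101 and 157 RPKM at 120 h, while untreated cells had 0.0220 and 0 and 0.0170 and 0.0400 RPKM; the 2 genes are close relatives and reads may be shared between them. C5ar1, the complement C5a receptor, had 65.4 and 72.4 RPKM against 0.0210 and 0.0250 RPKM, and Cxcr2, which releases neutrophils from marrow, 46.3 and 56.8 RPKM against 0.508 and 0.497 RPKM. Ltb4r1, the leukotriene B4 receptor, had 155 and 131 RPKM against 5.49 and 5.31 RPKM. Cxcr4, the marrow retention receptor, rose too (2.40, adjusted p = 1.30e-07). The exception was Ccr2, the monocyte receptor, with 31.6 and 38.6 RPKM at 120 h and 113 and 111 RPKM in untreated cells (-1.65, adjusted p = 1.64e-05).

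Of 31 tested pattern recognition and inflammasome genes, 2 of which passed the filter only through the 120 h libraries, 29 rose, 26 of them at least 2-fold, and 1 fell, beside 27.5% of all genes higher, 14.4% at least 2-fold higher and 52.7% lower. Cd14, which hands lipopolysaccharide to Tlr4, had 190.2 and 213 RPKM at 120 h and 0.212 and 0.0940 RPKM in untreated cells. Tlr2 had 142 and 176 RPKM against 1.29 and 1.04 RPKM, and Clec4n (dectin-2, a receptor of fungal mannans) 191 and 227 RPKM against 0.175 and 0.166 RPKM. Tlr4 was higher than in untreated cells (20.3 and 18.6 against 1.09 and 1.09 RPKM) but lower than in the 72 h group (24.0 and 24.6 RPKM, 120 h minus 72 h -0.31, adjusted p = 0.00972). The signaling kinase Irak1 was not called (0.021), and Ticam2, an adaptor of Tlr4, fell by 0.84.

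Adhesion molecules changed member by member, with 13 of 20 higher and 4 lower, beside 27.5% and 52.7% of all genes. The chains of Mac-1 rose, with Itgam at 445 and 583 RPKM at 120 h against 1.88 and 2.20 RPKM in untreated cells and its partner Itgb2 at 469 and 532 RPKM against 15.7 and 17.9 RPKM. Cd34, the sialomucin of progenitors, fell to 37.6 and 27.5 RPKM, against 869 and 830.0 RPKM, and Itga9 to 0.0430 and 0.0530 RPKM, against 16.7 and 16.1 RPKM. Pecam1 (-1.34) and Itga2b (-1.40) fell as well, while Itga4 (0.41) and Itga6 (-0.22) were not called, though without 120 h library 1 Itga4 was called higher (0.74, adjusted p = 0.00728).

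Granule classes did not change together, and over all genes 27.5% were higher and 52.7% lower, or 39.4% and 38.6% under median-of-ratios scaling. Secondary granule genes rose in 22 of 24 tested (4 passed the filter only through the 120 h libraries), with a median of 6.26, and took 6.01 and 5.74% of coding RPKM at 120 h, against 0.165 and 0.174% in untreated cells. Late neutrophil effector genes rose in 30 of 32 (1 passed only through those libraries), with a median of 4.09, and took 7.52 and 8.36% against 0.207 and 0.226%. Primary granule and promyelocyte genes were divided, 6 higher, 3 lower and 6 uncalled of 15, or 9 and 3 under median-of-ratios scaling, and took 1.11 and 0.760% of coding RPKM at 120 h, against 1.31 and 1.39% in untreated cells. Of the 15 genes 1 passed the filter only through the 120 h libraries. Without 120 h library 1 the counts were 6 higher and 5 lower, and without library 2 they were 10 and 3. The share of the primary list in the 72 h group was 3.03 and 2.94%. In the secondary list Camp, the cathelicidin peptide precursor, had 668 and 509 RPKM at 120 h and 0.0650 and 0.0280 RPKM in untreated cells, and Olfm4 438 and 408 RPKM against 0.0390 and 0.0240 RPKM. Adgrg3, an adhesion receptor of neutrophils, was the list's only fall (67.5 and 51.7 against 121 and 128 RPKM, -1.07). Cd63, a tetraspanin of granule membranes and a member of the primary list, was not called (0.35, or 0.59 without 120 h library 2).

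Within the primary list the members parted by direction. Mpo, the myeloperoxidase, had 463 and 178 RPKM at 120 h and 2042 and 2433 RPKM in untreated cells (-2.95, adjusted p = 1.34e-04), and Ctsg, the protease cathepsin G, 231 and 95.6 RPKM against 1617 and 1692 RPKM (-3.47, adjusted p = 2.87e-05). Elane, the neutrophil elastase, had 94.0 and 32.2 RPKM at 120 h and 1.68 and 3.19 RPKM in untreated cells (4.07, adjusted p = 3.52e-05), and Ms4a3 279 and 122 RPKM against 4.55 and 4.49 RPKM (5.07). Prtn3, proteinase 3 and the neighbor of Elane, was not called, with 556 and 235 RPKM against 289.9 and 323 RPKM (0.24, adjusted p = 0.528), and without 120 h library 1 it was called lower (-0.38, adjusted p = 0.0313), while without library 2 it was called higher (0.86, adjusted p = 5.56e-04). All 5 were lower at 120 h than in the 72 h group, where Mpo had 4334 and 4137 RPKM, Elane 262 and 295 RPKM and Prtn3 1455 and 1329.8 RPKM. The 120 h minus 72 h change was -3.88 for Mpo, -3.95 for Ctsg, -2.31 for Elane, -1.50 for Ms4a3 and -1.94 for Prtn3 (adjusted p at most 0.0065), and library 2 of the 120 h cells was below library 1 for each of them. Fcnb (ficolin B) and Ctsc, which activates the granule proteases, rose against both groups (7.97 and 2.51 against untreated, 2.88 and 2.36 against 72 h). Gm11505, an antisense gene inside Mpo, moved with it (436 and 165 against 1726 and 2014 RPKM) and cannot be separated from it, as the use of strand is not given in the sources used here. Lyz2, a lysozyme gene, had 2.68 and 4.29 RPKM at 120 h and 0.298 and 0.233 RPKM in untreated cells (1.80, adjusted p = 1.86e-05). Its neighbor and near copy Lyz1, named here after its values were seen, had 745 and 1012 RPKM against 0.147 and 0.121 RPKM, and reads may be split between them. The part of the reporter in the level of Lyz2 was not tested.

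**Figure D4:**
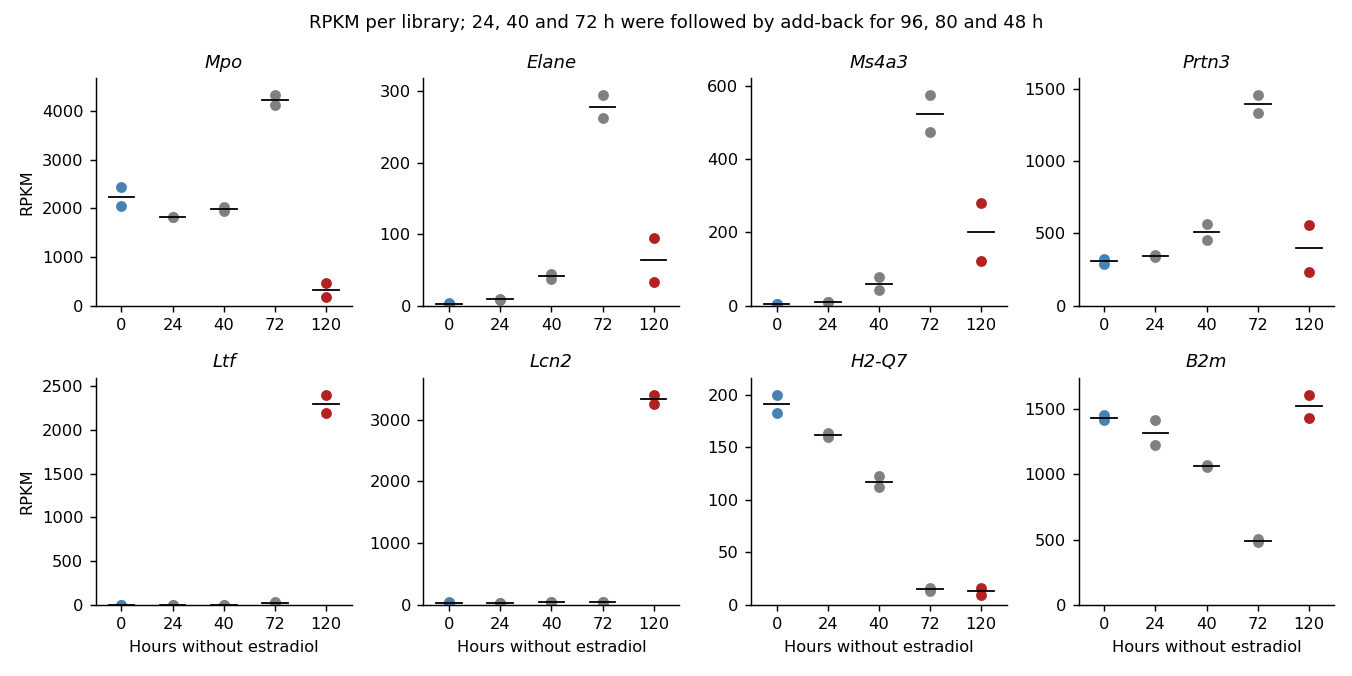
RPKM of 8 genes in each of the 10 libraries by hours without E2 (0 stands for untreated cells, and the 24, 40 and 72 h groups had E2 again for 96, 80 and 48 h), with 1 point per library and a bar at the mean of 2. Mpo, Elane, Ms4a3 and Prtn3 stand highest in the 72 h group, Ltf and Lcn2 in the 120 h group, H2-Q7 in untreated cells, and B2m is lowest in the 72 h group.

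The machinery of movement rose in most members, beside 27.5% higher and 52.7% lower over all genes. Of 34 actin and motility genes 31 were higher and 1 lower, with a median of 1.21, and they took 3.78 and 3.91% of coding RPKM at 120 h, against 1.45 and 1.44% in untreated cells. Fgr, a Src family kinase of phagocytes, had 84.6 and 109.7 RPKM at 120 h, against 1.92 and 2.26 RPKM in untreated cells. Actn1, an actin crosslinker, had 101 and 103 RPKM against 13.2 and 12.8 RPKM. Cfl1, the actin-severing cofilin, was abundant in both groups and was not called (1369.6 and 1057 against 1209 and 1254 RPKM), though quantile normalization called it higher. Tmsb10, a relative of Tmsb4x, fell by 0.70.

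Nuclear envelope genes, which bear on nuclear lobing, had 8 of 16 lower and 3 higher, beside 52.7% and 27.5% of all genes. Under median-of-ratios scaling 4 were lower and 8 higher, beside 38.6% and 39.4% of all genes, so the direction of the list turns with the scaling. The directions of Lmnb1, Banf1, Sun1 and Sun2 did not. Of the 16 genes 1 passed the filter only through the 120 h libraries. Lmnb1, a B-type lamin, had 49.1 and 29.8 RPKM at 120 h and 90.9 and 88.7 RPKM in untreated cells (-1.21, adjusted p = 3.81e-04), and Banf1, which ties chromatin to the envelope, 125 and 69.1 RPKM against 332 and 340.1 RPKM (-1.84). Sun2, a link of the envelope to the cytoskeleton, rose to 235 and 205 RPKM, against 65.1 and 66.2 RPKM (1.73), while Sun1 fell (-0.91). Lbr, the lamin B receptor needed for lobed nuclei, was not called (109 and 81.9 against 99.4 and 97.9 RPKM, -0.060), but without 120 h library 1 it was called lower (-0.27, adjusted p = 0.00807). Lmna, the A-type lamin, rose but was low in both groups, at 2.17 and 1.73 RPKM against 0.0650 and 0.115 RPKM (1.43).

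Both lists of the dividing cell ran lower: all 30 S phase genes and all 30 G2 and M phase genes were lower, beside 52.7% of all genes. Under median-of-ratios scaling 27 and 19 of them were lower, beside 38.6% of all genes. Mcm7, a subunit of the replicative helicase, had 95.4 and 46.6 RPKM at 120 h and 262 and 269 RPKM in untreated cells, and Ung, which clears uracil from DNA, 4.50 and 1.95 RPKM against 21.0 and 20.6 RPKM. The mitotic kinase gene Cdk1 had 35.9 and 17.2 RPKM against 67.1 and 68.2 RPKM (-1.41, adjusted p = 0.00119) and was lower in library 2 than in library 1. All 3 were still present in both 120 h libraries. The G1 list had 6 higher and 11 lower of 24, near the 27.5% and 52.7% of all genes. Under median-of-ratios scaling 10 were higher and 7 lower, beside 39.4% and 38.6% of all genes. Cdk4 had 66.1 and 40.1 RPKM at 120 h and 272 and 272 RPKM in untreated cells (-2.38), Cdk6 fell by 1.82 and Ccnd2 by 2.51. Ccnd3, the D cyclin of neutrophil precursors, rose (164 and 147 against 76.3 and 75.2 RPKM, 1.03), and so did the retinoblastoma gene Rb1 (1.04) and the antiproliferative Btg1 (59.1 and 76.4 against 5.94 and 6.01 RPKM, 3.29). The kinase inhibitors went both ways: Cdkn1b rose by 0.98, while Cdkn1a fell by 0.74 and Cdkn2a by 1.01. E2f2 rose (2.10), E2f4 fell (-1.03) and E2f8 was not called (0.090).

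Of 15 tested genes of the Bcl2 family, which governs cell death, 9 rose and 4 fell, beside 27.5% and 52.7% of all genes. Under median-of-ratios scaling 11 rose and 3 fell, beside 39.4% and 38.6% of all genes. Bcl2 had 0.918 and 0.804 RPKM at 120 h and 5.40 and 6.42 RPKM in untreated cells (-1.89, adjusted p = 2.01e-06). Mcl1, the survival factor of neutrophils, had 117 and 163 RPKM against 33.5 and 31.6 RPKM (2.05, adjusted p = 4.75e-06). The A1 genes Bcl2a1a, Bcl2a1b and Bcl2a1d rose by 3.98, 4.75 and 4.41, and as near-identical copies they are uncertain as single genes. Of the death-promoting members Bmf rose (2.43), Bid (-0.87) and Bbc3 (-0.69) fell, and Bad was not called (0.13).

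Of 9 tested genes of the pentose phosphate pathway and NADPH supply 5 rose and 2 fell, beside 27.5% and 52.7% of all genes. Under median-of-ratios scaling 7 rose and 2 fell, beside 39.4% and 38.6% of all genes. G6pdx, the entry enzyme of the pentose phosphate pathway, had 228 and 204 RPKM at 120 h and 31.9 and 32.7 RPKM in untreated cells (2.70, adjusted p = 1.56e-07). Pgd, the next NADPH-forming step, had 480.2 and 404 RPKM against 179.7 and 192 RPKM (1.24), but Pgls, the lactonase between them, fell to 71.6 and 45.2 RPKM, against 182 and 171 RPKM (-1.62). Taldo1 (0.98) and Idh1 (1.48) rose, and Tkt was not called (458 and 339.9 against 389 and 399.9 RPKM). Glycolysis genes were lower in 16 of 23 and higher in 4, beside 52.7% and 27.5% of all genes. Under median-of-ratios scaling 10 were lower and 4 higher, beside 38.6% and 39.4% of all genes. The median change of the list was then -0.079, in place of -0.51. Eno1 had 731 and 581 RPKM at 120 h and 2182 and 2290.0 RPKM in untreated cells (-1.78), and Ldha, Pgk1 and Pfkm fell by 1.50, 1.48 and 2.61. The lactate carrier Slc16a1 fell to 4.44 and 1.98 RPKM, against 22.8 and 22.5 RPKM. The glucose carriers Slc2a3 (1.23) and Slc2a6 (1.53), hexokinase Hk2 (0.71) and the regulator Pfkfb4 (2.52) rose. Glycogen genes had 5 of 11 higher and 4 lower, beside 27.5% and 52.7% of all genes. Under median-of-ratios scaling 6 were higher and 3 lower, beside 39.4% and 38.6% of all genes. Pygl, the phosphorylase that breaks glycogen down, rose to 198 and 209 RPKM, against 27.0 and 27.8 RPKM (2.85), with the branching enzyme Gbe1 (1.24) and Ugp2 (1.22).

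Genes that make building blocks were mostly lower, beside 52.7% of all genes, or 38.6% under median-of-ratios scaling. Nucleotide synthesis genes were lower in 21 of 24, 20 of them at least 2-fold, with 20 lower under median-of-ratios scaling. Impdh1, which makes the first committed step to GTP, had 20.9 and 12.8 RPKM at 120 h and 210.5 and 199 RPKM in untreated cells (-3.57, adjusted p = 6.69e-07), and the pyrimidine enzyme Cad averaged 8.19 ± 3.91 RPKM against 41.3 ± 0.0615 RPKM (SD, n = 2 each; -2.27). Atic (0.24) and Ctps2 (0.50) were the 2 that rose, and without untreated library 1 or 2 the call of Atic was lost (adjusted p = 0.0805 and 0.0859, with changes of 0.24 and 0.23). None of 23 serine, one-carbon and Atf4 genes rose and 20 fell, or 2 and 19 under median-of-ratios scaling. Psat1 and Phgdh, steps of serine synthesis, had 36.8 and 17.2 and 17.2 and 7.12 RPKM at 120 h, while untreated cells had 391 and 387 and 159 and 148 RPKM. Shmt2, the mitochondrial step that turns serine to one-carbon units, had 47.3 and 27.4 RPKM against 434 and 419 RPKM (-3.53, adjusted p = 1.61e-06). The stress markers of the same list, Trib3 (-2.89) and Ddit4 (-1.48), fell too, and Slc7a11 (0.24) and Sesn2 (0.27) were not called, though without 120 h library 1 both were called higher (0.34 and 0.50, adjusted p = 0.0439 and 0.0131).

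Lipid mediator genes rose in 10 of 14, 1 of which passed the filter only through the 120 h libraries, and fell in 4, or 3 under median-of-ratios scaling. Over all genes 27.5% were higher and 52.7% lower, or 39.4% and 38.6% under that scaling. Alox5ap, the protein that presents arachidonic acid to 5-lipoxygenase, had 896 and 878 RPKM at 120 h and 119.7 and 133 RPKM in untreated cells (2.80), and Lta4h, which makes leukotriene B4, 451 and 295 RPKM against 90.4 and 86.3 RPKM (2.03). The gene of 5-lipoxygenase itself, Alox5, was under the filter by the transcript used, at 0.227 and 0.265 RPKM against 0.024 and 0.006 RPKM. Ltc4s, which makes leukotriene C4 instead, fell (-0.89), as did the phospholipase Pla2g4a (-0.99). Mgst1, a membrane transferase, rose by 6.92 and the thromboxane synthase Tbxas1 by 3.91, and the prostaglandin enzymes Ptgs2 and Ptges rose by 2.41 and 2.68. In iron handling 8 genes rose and 8 fell of 19, beside 27.5% and 52.7% of all genes. Under median-of-ratios scaling 10 rose and 6 fell, beside 39.4% and 38.6% of all genes. The ferritin light chain Ftl1 had 2436 and 2104 RPKM at 120 h and 568 and 602 RPKM in untreated cells (1.95, adjusted p = 6.44e-06), while the heavy chain Fth1 was not called (1494 and 1577 against 1443 and 1440.0 RPKM, 0.090). Hmox1, which breaks heme down, rose (2.33), and the phagosome metal exporter Slc11a1 too (2.65), while Steap3 (-2.19) and Urod (-1.05) fell.

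Genes of protein production fell in nearly every list, and the share of all genes called lower was 52.7%, or 38.6% under median-of-ratios scaling. Cytosolic ribosomal protein genes took 12.3 and 8.73% of coding RPKM at 120 h, against 23.4 and 24.0% in untreated cells; 79 of 81 were lower and 1 higher, or 73 and 2 under median-of-ratios scaling. Rps12 had 1439 and 878 RPKM at 120 h and 3204 and 3403 RPKM in untreated cells, and Rps2 562 and 284 RPKM against 1839 and 1753 RPKM. Rpl3l, the muscle relative of Rpl3, was the 1 that rose (1.45 and 1.61 against 0.822 and 0.932 RPKM) and passed the filter only through the 120 h libraries. The 28 ribosome biogenesis factors were all lower, with a median of -1.85, 28 also under median-of-ratios scaling. Nucleophosmin, Npm1, had 296 and 188 RPKM at 120 h and 1253 and 1269.6 RPKM in untreated cells (-2.42), and Nop56 22.3 and 14.8 RPKM against 106 and 109 RPKM (-2.50). Mitochondrial ribosomal proteins were lower in 77 of 78 (66 under median-of-ratios scaling), nuclear-encoded respiratory subunits in 76 of 79 (67), and proteasome subunits in 36 of 37 (20). Ndufa4 had 112 and 77.9 RPKM against 563 and 561 RPKM, Mrpl12 17.9 and 10.7 RPKM against 77.1 and 76.2 RPKM, and Psmd7 36.2 and 25.4 RPKM against 81.5 and 85.7 RPKM. Mrpl33 was the 1 mitochondrial ribosomal gene that rose (0.38), a call lost without untreated library 1 (0.29, adjusted p = 0.169) or 120 h library 1 (0.27, adjusted p = 0.0996).

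Of the 17 tested subunits of the vacuolar proton pump, which acidifies lysosomes and phagosomes, 15 were higher and 1 lower, beside 27.5% and 52.7% of all genes. Under median-of-ratios scaling 16 were higher and 0 lower, beside 39.4% and 38.6% of all genes. Atp6v1b2 had 233 and 209 RPKM at 120 h and 53.7 and 50.2 RPKM in untreated cells (2.06, adjusted p = 2.57e-07), and Atp6v0c 426 and 338 RPKM against 134 and 141 RPKM (1.46). Atp6v0d2, a form of osteoclasts and macrophages, averaged 13.4 ± 3.40 RPKM against 0.00400 ± 0.00566 RPKM (SD, n = 2 each), and it passed the filter only through the 120 h libraries. Endoplasmic reticulum genes had 5 of 25 higher and 14 lower, near the shares of all genes (27.5% and 52.7%). Under median-of-ratios scaling 8 were higher and 9 lower, beside 39.4% and 38.6% of all genes. Their sensors and regulators Xbp1 (1.26), Eif2ak3 (1.13) and Atf6 (0.88) rose, Ssr4 (-1.50) and Sec61b (-1.49) of the translocon fell, and the chaperone Hspa5 was not called (319.8 and 261 against 266 and 281 RPKM).

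**Figure D5:**
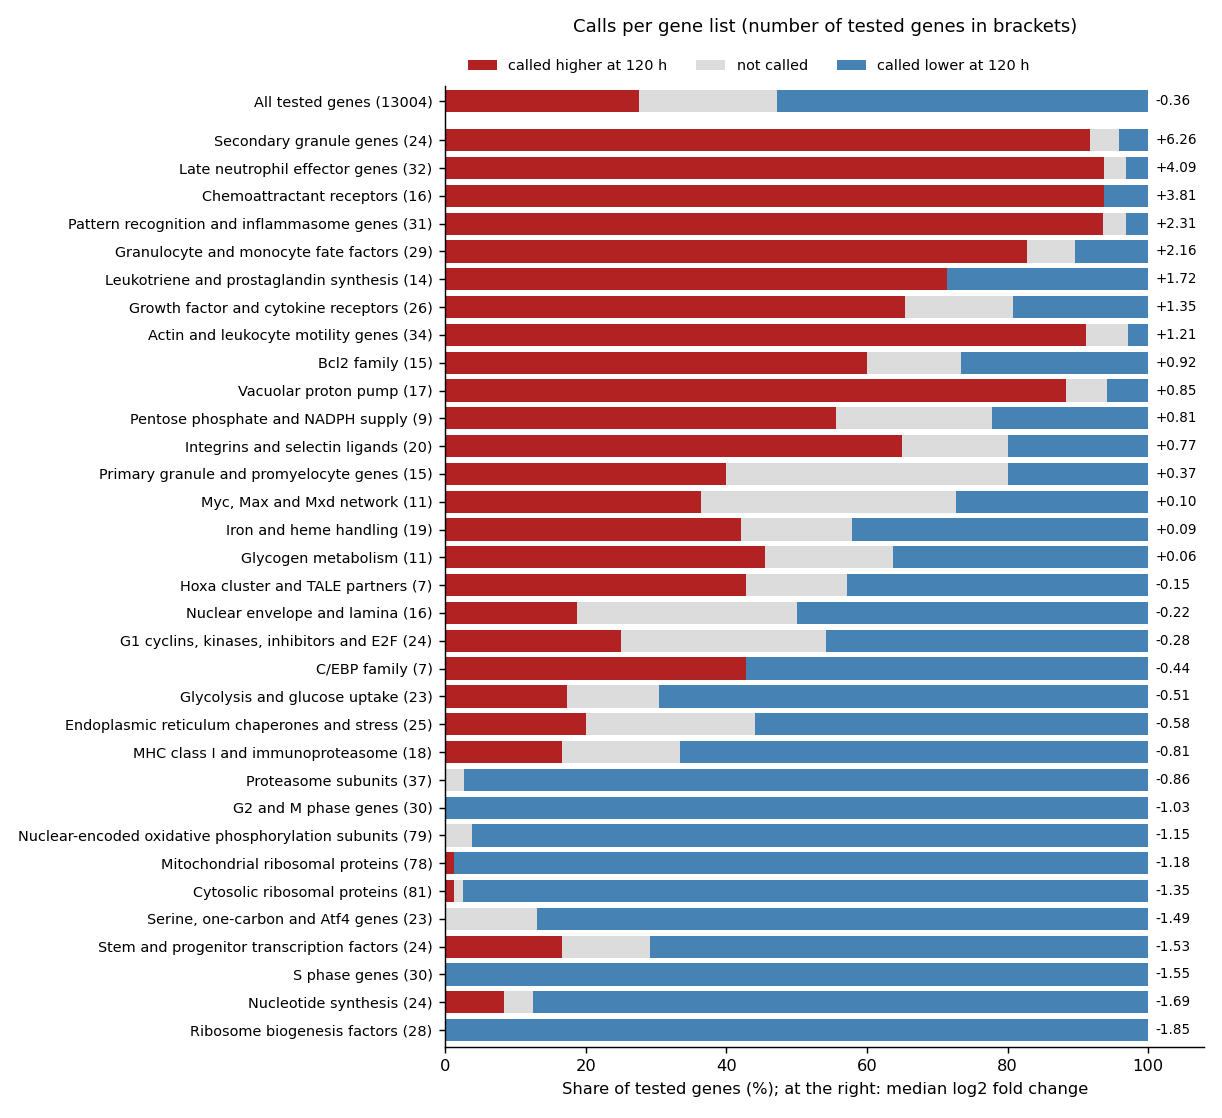
Share of the tested genes of each list (%) that were called higher, not called or called lower at 120 h, with the number of tested genes in brackets and the median log2 fold change (120 h minus untreated) at the right. The top bar gives all 13004 genes (27.5% higher, 52.7% lower), and lists run from the highest median (6.26, secondary granule genes) to the lowest (-1.85, ribosome biogenesis factors).

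Genes of antigen presentation on MHC class I moved in both directions. Of 18 class I and immunoproteasome genes 12 were lower and 3 higher than in untreated cells, beside 52.7% and 27.5% of all genes. Under median-of-ratios scaling 9 were lower and 5 higher, beside 38.6% and 39.4% of all genes. H2-Q7 and H2-Q6, nonclassical genes that are near copies of each other, had 9.24 and 16.2 and 5.33 and 10.6 RPKM at 120 h, while untreated cells had 182 and 200.0 and 114 and 114 RPKM. H2-T23, the Qa-1 ligand of inhibitory receptors on killer cells, rose to 75.4 and 95.8 RPKM, against 21.4 and 21.9 RPKM (1.93, adjusted p = 1.62e-05). H2-K1 had 276 and 387 RPKM at 120 h and 616 and 649.9 RPKM in untreated cells (-0.95), H2-D1 was not called (-0.27; without 120 h library 2 it was called lower, -0.46), and the light chain B2m was not called (1429 and 1612 against 1416 and 1454 RPKM, 0.081, adjusted p = 0.634). Tap1 and Tap2, the peptide transporter, fell by 1.37 and 1.57, while Tapbp (tapasin) rose by 1.37. Against the 72 h group the list ran upward, with 11 higher and 2 lower, beside 26.4% and 51% of all genes in that comparison: B2m had 501 and 484 RPKM and H2-K1 173 and 178 RPKM in that group (120 h minus 72 h 1.62 and 0.89). H2-Q7 had 13.5 and 15.9 RPKM there, and its difference at 120 h was not called (-0.24, adjusted p = 0.33).

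Markers of other cell types bear on which cells the 120 h libraries hold, and over all genes 27.5% were higher and 52.7% lower. The 11 neutrophil markers summed to 21690 and 21668 RPKM at 120 h, against 4.45 and 3.35 RPKM in untreated cells, and the 8 progenitor markers to 114 and 81.7 RPKM, against 1626 and 1603 RPKM. Of the 11 neutrophil markers 2 passed the filter only through the 120 h libraries. Ly6g, the surface antigen of mature mouse neutrophils, named after its values were seen, had 11.7 and 16.2 RPKM at 120 h and was listed at 0 in both untreated libraries. Of 13 monocyte and macrophage markers 11 were tested, 2 of which passed the filter only through the 120 h libraries, 10 rose and 1 fell, and the list summed to 1600 and 1493 RPKM, against 123 and 120 RPKM; Adgre1 (F4/80) had 199 and 215 RPKM against 1.16 and 1.59 RPKM, while Mrc1 stayed under the filter. Eosinophil markers summed to 676 and 434 RPKM, against 41.4 and 75.2 RPKM, mostly from Prg2 (471 and 250.5 against 12.9 and 36.3 RPKM). All 7 tested rose, 1 of which passed the filter only through the 120 h libraries. Ear2 took 0.0190 and 0.0240% of coding RPKM at 120 h and 0 in both untreated libraries. The eosinophil peroxidase Epx was at 3.89 and 2.76 RPKM at 120 h, and Ccr3 and Il5ra were under the filter. This list summed to more in the 72 h group, 1595 and 1408 RPKM. Mast cell and basophil markers summed to 22.7 and 16.9 RPKM, against 190 and 193 RPKM, with Cpa3 at 13.3 and 9.11 RPKM against 128 and 123 RPKM. Dendritic cell markers summed to 245 and 406 RPKM, against 261 and 253 RPKM, but the sums came from different genes. In untreated cells Flt3 took 0.0595 and 0.0569% of coding RPKM, of 0.0605 and 0.0576% for the list, and it was nearly lost at 120 h. Cd74, the invariant chain, made up most of the 120 h sum, with 234 and 381 RPKM against 1.69 and 1.20 RPKM. Of 5 tested 4 rose and 1, Flt3, fell, and 1 passed the filter only through the 120 h libraries. Zbtb46, Xcr1, Clec9a, Siglech, Cd209a and Ciita were under the filter, and H2-Aa was at 4.82 and 13.1 RPKM. Lymphoid markers summed to 39.2 and 39.0 RPKM, against 311 and 283 RPKM, with 9 of 10 tested lower, and Rag2, of antigen receptor recombination, at 0.00300 and 0.0120 RPKM against 30.5 and 28.7 RPKM. Of these 10 lymphoid markers 1 passed the filter only through the 120 h libraries. Erythroid and megakaryocyte markers summed to 25.6 and 25.7 RPKM, against 13.3 and 20.1 RPKM, with the globins, Klf1 and Gata1 under the filter. How many cells of each type lie behind these sums was not tested.

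Called genes also lay side by side on chromosomes (GRCm38). The longest run of neighboring tested genes that all rose at least 2-fold was 15 genes at chromosome 16, 36156811 to 36784962, with the stefin cluster, Cd86 and Slc15a2. The next were 12 predicted genes at chromosome 1, 85027954 to 85550577, and 10 genes of the Trim5, Trim12, Trim30 and Trim34 cluster at chromosome 7, 104244457 to 104507849. Trim30a, of the last run, had 30.4 and 46.0 RPKM at 120 h and 3.38 and 3.54 RPKM in untreated cells, and Stfa1, of the first, 5196 and 4366 RPKM against 0.597 and 0.434 RPKM. The longest run of falls was 13 genes at chromosome 6, 48589445 to 48847071, with the lymphoid Gimap GTPases and Tmem176a and Tmem176b, followed by 11 genes at chromosome 10, 75771230 to 75949657, with Mif, Smarcb1 and the Gstt transferases. Gimap6 had 0.246 and 0.365 RPKM at 120 h and 32.6 and 31.1 RPKM in untreated cells, and Mif, a cytokine with high levels in dividing cells, 133 and 91.0 RPKM against 887 and 983 RPKM. The stefin, Trim30 and predicted gene clusters hold near-identical copies, so that reads may be shared and the genes of a run are not independent of each other.

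Against the 72 h group, the most similar one, 3435 genes were higher (26.4%) and 6636 lower (51%), under median-of-ratios scaling 4997 and 4352. The 72 h level of Ltf, Csf1r and Flt3 lay between those of the other 2 groups. Ltf had 2188 and 2405 RPKM at 120 h and 16.6 and 33.9 RPKM in the 72 h group, Csf1r 199 and 285 and 14.2 and 20.2 RPKM, and Flt3 1.88 and 2.64 and 27.3 and 29.5 RPKM. No difference was called between 120 h and 72 h for Meis1 (0.706 and 1.10 RPKM at 120 h, 1.28 and 1.19 RPKM at 72 h; -0.24, adjusted p = 0.12) and Ly6c2 (638 and 430.0 and 568 and 608 RPKM; -0.17, adjusted p = 0.491). Myc and Npm1 were lower at 120 h than at 72 h: Myc had 42.4 and 22.6 RPKM at 120 h and 205 and 215 RPKM at 72 h (-2.72), and Npm1 296 and 188 and 1259 and 1153 RPKM (-2.35, adjusted p = 1.95e-05). Both comparisons use the same 120 h libraries, so their values are given side by side and not as separate evidence.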

How the data were processed

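Total RNA was extracted with RNeasy columns and libraries were made with an Illumina TruSeq RNA kit, per the labels' protocols. The submitters' processing notes name STAR and GRCm38; the sources used here do not give versions, the counting program, the annotation or the use of strand. The deposited values are RPKM per transcript, 79535 transcripts in each of 10 files, with no counts. The low RPKM values were whole multiples of 1 read, within 0.02 reads for 100% of those tried, which gave denominators of 173620000 to 204390000 reads, so that 1 read on 2 kb is 0.00245 to 0.00288 RPKM. Of the transcripts 77720 (97.7%) matched GENCODE gene models, and the 1815 unmatched ones (2.64 to 3.24% of RPKM) were left out. For each gene 1 transcript was kept by annotation only, with preference to coding ones, then to APPRIS principal ones, to those in CCDS and to length. Groups came from sample titles, add-back times from the sample annotation.

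Genes with at least 1 RPKM in at least 2 libraries (13004 of 26227) were tested on log2(RPKM + 1), a pseudocount of 1, with limma 3.58.1 in R 4.3.3. All 10 libraries (5 groups of 2) entered 1 fit with a mean-variance trend, leaving 5 residual and 3.04 prior degrees of freedom. The p-values are 2-sided and Benjamini-Hochberg adjusted over all 13004 genes. How often the test calls genes wrongly where groups differ in spread was not tested. Promoter windows are the 250 bases before RefSeq's start (GRCm38.p6) nearest to the transcript's start, at most 1000 bases away. Alternatives were median-of-ratios and quantile scaling, a pseudocount of 0.1, no filter, the most abundant transcript, limma voom on recovered reads, array weights, the 2 groups alone, a replicate block, and leaving out each library.

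The members and the 41 gene lists were chosen with earlier results of these data known. The genes named are, by rule: Hoxa9, Meis1, Esr1, Kit and Lyz2; the 10 highest and 10 lowest fold changes among called genes with at least 5 RPKM in the higher group and no overlap; the 10 largest gains and losses in mean RPKM; for each list up to 5 called members in each direction and up to 2 uncalled ones; all C/EBP, fate, Hoxa and Myc network members; the 10 genes that differed most between the 120 h libraries; members called in opposite directions against untreated and against 72 h; the 10 most abundant genes switched on and off; and genes of the 3 longest runs in each direction. Some genes that this rule takes in are not reported here.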

Additional observations from a re-analysis of the deposited data

How the results depend on the processing

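Over the counts of genes called at 120 h against untreated, each alternative stayed within 1.5 times the values reported, except that median-of-ratios scaling gave 1839 genes lower at least 2-fold, in place of 3288. In the comparison with the 72 h group that scaling gave 4352 genes lower, in place of 6636. These follow from the scaling itself, which moved the median change of all genes to about 0; quantile normalization moved it to -0.18. Leaving out 1 library gave 3191 to 3962 genes higher, 6311 to 6944 lower, and 1694 to 2060 higher and 2681 to 3730 lower at least 2-fold. Limma voom on recovered reads called 3571 genes higher, 2141 by 2-fold or more, and 6854 lower, 4212 by 2-fold or more.

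Same-numbered libraries did not all deviate together (correlations of 0.0341 to 0.639, 0.129 for the 2 groups compared), so the numbers are not taken as pairs. The highest, 0.639, was that of the 120 h with the 72 h group. With a replicate block 3759 genes were higher and 7028 lower, and 1871 and 3288 at least 2-fold. Against the 72 h group the block gave 3587 genes higher and 6837 lower.

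Of 231 genes named, 199 kept their direction and side of the threshold in all 13 alternatives. Turned signs are listed here only for genes called in the reported fit or in the alternative, and genes uncalled in both are left out. Signs turned with median-of-ratios scaling for Lbr (0.38), Lyl1 (0.41), Mxd4 (0.17), Nfe2 (0.34) and Tkt (0.44). Signs turned with quantile normalization for Cfl1 (0.51), and without 120 h replicate 1 for Prtn3 (-0.38; 0.86 without 120 h replicate 2). With 2 libraries a group the spread is poorly known. As 1 read is worth at most 0.00288 RPKM on 2 kb, the lowest levels given (Rag2 and Mycn at 120 h, Ly6g in untreated cells) rest on few reads or none.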
